A study of Homo sapiens with 4 samples.

Results

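Small noncoding RNAs of ribonucleoprotein particles were followed in RNA bound to the demethylase ALKBH5. They were the RNase P RNA RPPH1, the RNase MRP RNA RMRP, the Y RNAs RNY1, RNY3, RNY4 and RNY5, the vault RNAs VTRNA1-1, VTRNA1-2 and VTRNA1-3, and the telomerase RNA TERC. These 10 symbols were taken by name from a table of 26830 genes, and all 10 had a row. The cells were NOMO-1, a human acute myeloid leukaemia line, carrying a lentivirus for the ALKBH5 coding sequence with a 3xFlag tag, and all libraries came from these overexpressing, UV-crosslinked cells. There were 2 Flag-IP libraries, of RNA pulled down with an anti-Flag antibody, and 2 input libraries, of RNA without the pull-down, numbered 1 and 3 in each group. A pull-down from untagged cells is not analysed here, so antibody background was not measured. The labels do not say whether libraries of one group are separate cultures, and p-values therefore reflect a spread that may be technical.

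RNase P is a ribozyme whose RNA subunit cuts the 5′ leader from precursor tRNAs, and RNase MRP is its relative that acts in ribosomal RNA processing. Both are transcribed by RNA polymerase III and share most of their protein subunits. Y RNAs are short stem-loop RNAs bound by the Ro60 protein and, at the 3′ end, by La. Vault RNAs sit in the vault, a large barrel-shaped particle of the cytoplasm. TERC carries the template from which telomerase copies telomeric repeats; unlike the others it is made by RNA polymerase II. ALKBH5 removes the methyl group of N6-methyladenosine (m6A), a mark of mRNA and other RNAs.

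These families differ in how far their members can be told apart by sequence. The sequences are those of GENCODE 29 on GRCh38, and no GENCODE entry was matched for RNY5, which RefSeq places at chr7:148941488-148941571 (GRCh38.p14). RNY1 (chr7:148987136-148987248, minus strand) and RNY4 (chr7:148963315-148963410, plus strand) are shown because their shared 5′ end, in capitals, is where their stem begins.
RNY1: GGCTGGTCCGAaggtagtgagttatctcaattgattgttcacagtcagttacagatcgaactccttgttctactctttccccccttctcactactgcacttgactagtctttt
RNY4: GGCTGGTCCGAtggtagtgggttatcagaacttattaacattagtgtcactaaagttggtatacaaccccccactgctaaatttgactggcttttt
The capitals mark the longest run that both share, the first 11 bases. Over their whole length RNY1 and RNY4 were 63.7% identical. Neither overlapped another annotated gene. Many near copies of Y RNAs are annotated elsewhere in the genome: at 90% identity or more over at least 80% of the RNA, 87 other GENCODE genes matched RNY1 and 41 matched RNY4. Of these genes, 1 each had a row of the same name in the table. Reads of such copies could have been counted to the Y RNA rows, so the levels of the Y RNAs are uncertain.

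The vault RNAs VTRNA1-1 (chr5:140711275-140711373, plus strand), VTRNA1-2 (chr5:140718925-140719013, plus strand) and VTRNA1-3 (chr5:140726158-140726246, plus strand) are shown because the table lists a single one of them above 0.
VTRNA1-1: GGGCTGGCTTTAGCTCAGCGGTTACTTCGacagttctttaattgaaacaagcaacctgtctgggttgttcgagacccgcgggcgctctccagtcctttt
VTRNA1-2: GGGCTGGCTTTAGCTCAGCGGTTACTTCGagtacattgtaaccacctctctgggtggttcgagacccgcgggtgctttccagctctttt
VTRNA1-3: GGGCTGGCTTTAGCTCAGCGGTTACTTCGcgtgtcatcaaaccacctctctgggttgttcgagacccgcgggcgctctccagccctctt
The capitals mark the first 29 bases, which are the same in all 3. Identity was 81.8% between VTRNA1-1 and VTRNA1-2, 83.0% between VTRNA1-1 and VTRNA1-3 and 87.8% between VTRNA1-2 and VTRNA1-3. The run GGTTCGA was searched on both strands as a form of the B box of internal polymerase III promoters. It occurred in VTRNA1-2 alone of the 3, at base 56, and 0.113% of windows of the same length at the start of GENCODE genes hold it. Only exact matches were counted. VTRNA1-1 and VTRNA1-3 hold TGTTCGA at the like place, so the search does not tell whether they lack a B box. With 29 to 34 bases shared without a mismatch between any pair, the split of reads among these rows is uncertain too.

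RPPH1 (bases 1 to 300 of 333, chr14:20343108-20343407, minus strand) and RMRP (chr9:35657751-35658018, minus strand) are shown because they carried most of the signal.
RPPH1: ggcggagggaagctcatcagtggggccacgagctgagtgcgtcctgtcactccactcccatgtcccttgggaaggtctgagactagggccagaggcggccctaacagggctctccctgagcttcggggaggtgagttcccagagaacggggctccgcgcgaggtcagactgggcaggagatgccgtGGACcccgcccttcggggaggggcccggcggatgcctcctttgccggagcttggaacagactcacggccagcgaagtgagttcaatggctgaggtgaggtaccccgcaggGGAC
RMRP: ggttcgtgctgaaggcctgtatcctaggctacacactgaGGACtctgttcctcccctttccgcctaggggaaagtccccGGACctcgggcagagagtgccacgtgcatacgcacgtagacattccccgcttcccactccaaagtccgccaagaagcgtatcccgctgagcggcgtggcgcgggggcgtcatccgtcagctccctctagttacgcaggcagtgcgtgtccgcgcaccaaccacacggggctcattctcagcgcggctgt
The capitals mark GGAC, the core of the common m6A sequence context. RPPH1 held it at bases 187 and 297 and RMRP at bases 40 and 80 of 268, on the RNA strand. GGAC was present in 73.6% and 66.0% of windows of these lengths at the start of GENCODE genes, so its presence does not single these RNAs out. On the RNA strand it was in neither of the Y RNAs and none of the 3 vault RNAs shown, where 28.8% to 36.1% of windows hold it. On the opposite strand GGAC had 2 matches in RPPH1, 3 in RMRP, 1 in RNY1, 1 in RNY4 and 1 in VTRNA1-1. RPPH1 lies 175 bases from PARP2, the nearest protein-coding gene, and within an exon of AL355075.4, an unnamed noncoding gene on the same strand. RMRP lies 272 bases from CCDC107 and overlapped no other annotated gene.

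The start of TERC (bases 1 to 110, chr3:169764951-169765060, minus strand) is shown for its template, in capitals.
TERC: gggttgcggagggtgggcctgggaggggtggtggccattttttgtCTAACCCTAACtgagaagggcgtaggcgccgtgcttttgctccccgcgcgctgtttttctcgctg
The search was for CTAACCC on both strands, found at base 46 on the RNA strand; the capitals run on for 4 more bases. Of windows as long as the GENCODE entry of TERC, 1.52% hold this run. GGAC occurred in TERC at bases 208, 420 and 433, and 87.4% of windows of that length hold it. The GENCODE entry of TERC is 541 bases long and the RefSeq gene 451.

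Expression was given in TPM, relative abundances per transcript length that sum to 1000000 in each library, and they keep no depth, so that counting error cannot be stated. Structural RNAs held 92.5% and 93.6% of the TPM in Flag-IP libraries, against 96.8% and 96.3% in input. The typical gene was higher in Flag-IP on the deposited scale. The median ratio of means was 2.38 over the 6487 genes that averaged 1 TPM or more over the 4 libraries. Genes at 1 TPM or more numbered 7970 and 7249 in Flag-IP and 4076 and 4543 in input. Some genes thus passed this filter through Flag-IP alone, and what part that has in the 2.38 was not tested. Member values are given on that scale and also on a median-ratio scale. On the latter each library was divided by the median of its ratios to the gene's geometric mean, so that the typical gene lies near 0. The genes that passed the filter set this scale, among them those that passed through Flag-IP alone. The bait transcript ALKBH5 stood at 10.09 and 8.91 TPM in the Flag-IP libraries, against 4.62 and 4.91 TPM in input. On the median-ratio scale its log2 difference was -0.24 ± 0.11 (SE, limma adjusted p = 0.12). Of 11 markers of the labelled myeloid lineage 7 averaged 1 TPM or more, led by the granule genes CTSG and ELANE. MPO, LYZ and ITGAM averaged below 1 TPM, and CD14, which marks monocytes, was listed at 0 in all 4 libraries. Over 10 genes listed as markers of other lineages the sum was 2.55 and 2.36 TPM in Flag-IP and 0.62 and 1.05 TPM in input. It was mostly PECAM1, and 5 of the genes were at 0 in all libraries.

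RPPH1 and RMRP rose in Flag-IP on the deposited scale, by nearly the same factor. RPPH1 was at 11712.72 and 12357.06 TPM in the Flag-IP libraries, against 6261.66 and 7153.75 TPM in input. RMRP was at 6096.77 and 5861.69 TPM in the Flag-IP libraries, against 3153.28 and 3503.42 TPM in input. Neither group overlapped the other, with Flag-IP the higher for each RNA, and the libraries of a group lay close together. Means were 12035 ± 456 and 6708 ± 631 TPM for RPPH1, and 5979 ± 166 and 3328 ± 248 TPM for RMRP (Flag-IP and then input, SD, n = 2 each). The ratios of means were 1.79 and 1.80. The log2 differences were 0.85 ± 0.15 for RPPH1 (SE, limma adjusted p = 3.4e-08) and 0.85 ± 0.16 for RMRP (limma adjusted p = 2.4e-07). The median of all tested genes was 0.84. Adding 1 TPM before the logarithm understates differences of low genes and so lowers that median. By ratio of means, where nothing is added, the median of tested genes was 2.38, above both RNAs. Together the 2 RNAs held 98.0% and 97.1% of the TPM of the 10 members in Flag-IP, and 96.6% and 97.5% in input. The 10 members made up 1.82% and 1.88% of all TPM in the Flag-IP libraries, against 0.975% and 1.09% in input.

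**Figure D1:**
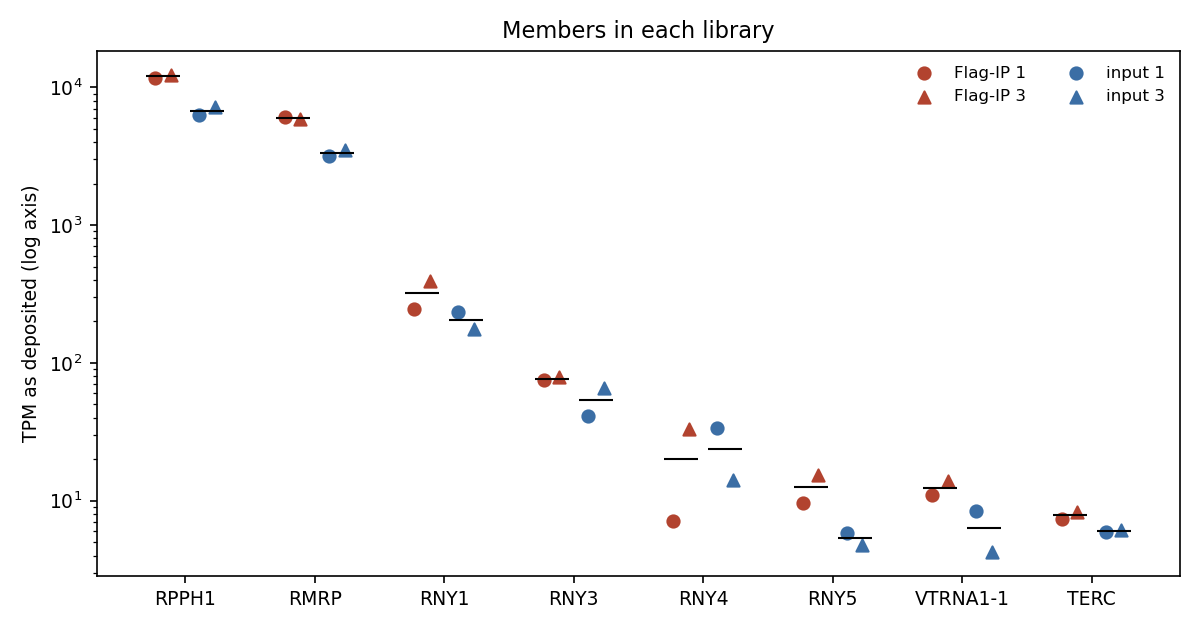
TPM as deposited (log axis) of the 8 members above 0 in each of the 4 libraries, with points for libraries and black lines for group means of 2. VTRNA1-2 and VTRNA1-3 were listed at 0 in all libraries and are not drawn; RPPH1 and RMRP lie far above the rest, and RNY4 is the member whose Flag-IP and input libraries overlap.

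Relative to the typical gene, the same 2 RNAs lay lower in Flag-IP without passing the test. On the median-ratio scale RPPH1 was at 6803 and 8858 in Flag-IP against 10461 and 10285 in input, and RMRP at 3541 and 4202 against 5268 and 5037. Flag-IP 1 was the lowest library for both, and no Flag-IP library reached an input. The log2 differences were -0.42 ± 0.17 (limma adjusted p = 0.095) for RPPH1 and -0.42 ± 0.14 (limma adjusted p = 0.060) for RMRP. Without Flag-IP 3 both passed (-0.58, adjusted p = 0.029, and -0.52, adjusted p = 0.036), and RMRP also passed without a mean-variance trend (adjusted p = 0.037). Without Flag-IP 1 the differences shrank to -0.18 for RPPH1 (adjusted p = 0.31) and -0.24 for RMRP (adjusted p = 0.18), and with the filter at 5 TPM to -0.20 for each. Of all tested genes, 74.7% had a larger ratio of means than RPPH1 and 74.6% a larger one than RMRP. Of the other structural RNAs, 35.0% and 34.5% did.

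The ratio of RPPH1 to RMRP within a library does not depend on how libraries are scaled. It was 1.92 and 2.11 in Flag-IP and 1.99 and 2.04 in input, with means of 2.01 ± 0.13 and 2.01 ± 0.040 (SD, n = 2 each). The inputs lay between the Flag-IP libraries. The ratio of 7SL RNA, the scaffold of the signal recognition particle, to RPPH1 overlapped between groups likewise: RN7SL1 was 7.60 and 6.67 times RPPH1 in Flag-IP, against 7.50 and 6.91 times in input. Other abundant RNAs moved away from RPPH1. 7SK, an RNA that keeps P-TEFb, a kinase of transcription elongation, inactive, was 4.36 and 3.66 times RPPH1 in Flag-IP and 1.00 and 0.977 times in input, a 4.05-fold higher mean ratio. 28S ribosomal RNA was 11.6 and 12.1 times RPPH1 in Flag-IP, against 39.1 and 38.6 times in input on this scale per transcript length, so that the mean ratio was 0.305 of that in input, and for 18S ribosomal RNA it was 0.603 of that in input. No group overlapped in these 3 ratios. With 2 libraries against 2 an exact two-sided permutation test cannot give a p below 0.333, so these ratios were not tested.

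**Figure D2:**
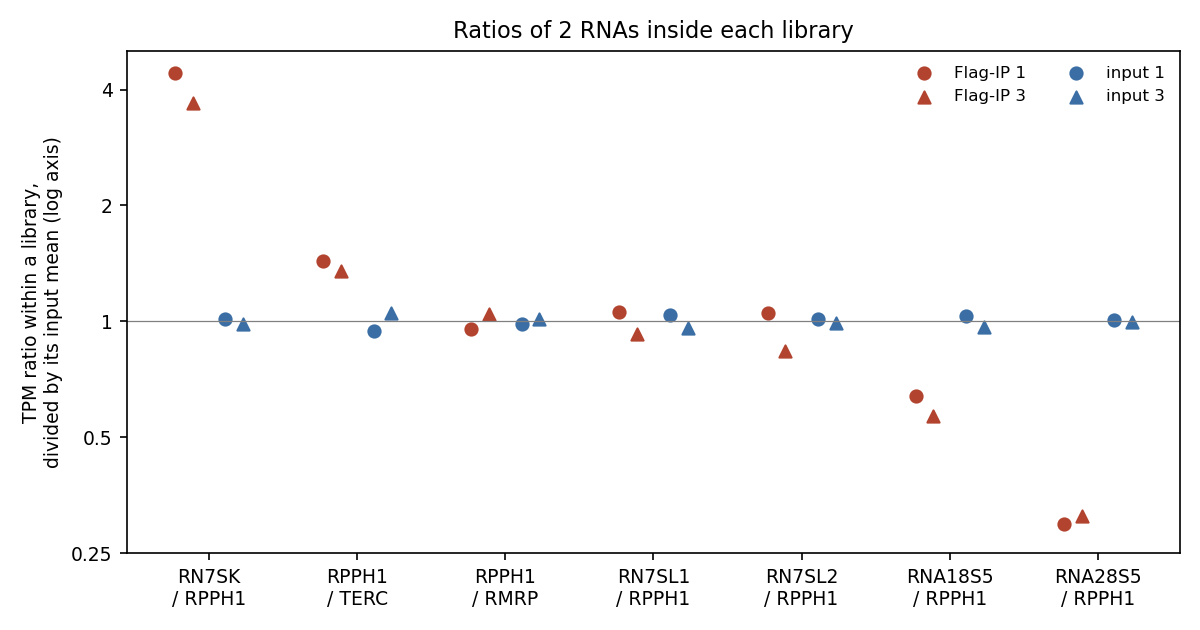
Ratio of the TPM of 2 RNAs within each library, divided by the mean of that ratio in input (log axis), with 1 point per library. RPPH1 to RMRP and both 7SL rows to RPPH1 stay near 1 in all libraries, 7SK to RPPH1 is 4.05-fold higher in Flag-IP, and 28S to RPPH1 is at 0.305 of input.

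RNY1, RNY4 and RNY5 varied more between libraries of a group than RPPH1 and RMRP did. RNY1, the most abundant, was at 245.95 and 395.59 TPM in the Flag-IP libraries, against 235.98 and 176.93 TPM in input. Flag-IP 1 was close to input 1, and the groups were separated mainly by Flag-IP 3. The log2 difference of RNY1 was 0.61 ± 0.20 (limma adjusted p = 0.0027); it lost its call when Flag-IP 3 was left out (0.27, adjusted p = 0.35), likewise for input 3 (0.40, adjusted p = 0.17), and with no filter on low values (adjusted p = 0.15), and it was 0.95 without Flag-IP 1. On the median-ratio scale RNY1 was at -0.65 ± 0.35 (limma adjusted p = 0.19). That value was -0.11 without Flag-IP 1, -0.35 without input 1, -0.99 without input 3 and -1.12 without Flag-IP 3, where alone of these 4 it passed (adjusted p = 0.044). RNY3 was at 74.69 and 79.29 TPM in the Flag-IP libraries, against 41.45 and 65.42 TPM in input. Its Flag-IP libraries agree closely, and input 3 came near them. RNY3 rose by 0.55 ± 0.21 as deposited (limma adjusted p = 0.010), a call lost on leaving out Flag-IP 1 (adjusted p = 0.053), Flag-IP 3 (adjusted p = 0.11) or input 1 (0.23, adjusted p = 0.47), and with no filter (adjusted p = 0.13). Without input 3 it was 0.88.

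RNY4 and RNY5 stood at the low end. RNY4 was at 7.14 and 33.17 TPM in the Flag-IP libraries, against 33.59 and 14.22 TPM in input, so that its groups overlapped. limma nevertheless placed RNY4 lower as deposited (-0.46 ± 0.21, adjusted p = 0.037), because its error on that scale is the trend of all genes and not the spread of RNY4 itself. The direction turned without Flag-IP 1 (0.57, adjusted p = 0.091) and without input 1 (0.13, adjusted p = 0.70), while the difference was -1.50 without Flag-IP 3 and -1.05 without input 3. RNY4 did not pass once scaled by the median ratio (-1.63 ± 0.78, limma adjusted p = 0.14). There it passed on leaving out Flag-IP 3 (-2.72, adjusted p = 0.032), and it was smaller without Flag-IP 1 (-0.45) or input 1 (-0.96). RNY5, the shortest of the 4 Y RNAs, was at 9.57 and 15.49 TPM in the Flag-IP libraries, against 5.88 and 4.77 TPM in input. Both Flag-IP libraries were above both inputs, and RNY5 rose by 1.07 ± 0.21 (limma adjusted p = 1.9e-06), the largest deposited log2 difference among the members. Relative to the typical gene RNY5 was at -0.05 ± 0.30 (limma adjusted p = 0.91).

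The summed TPM of the 4 Y RNAs was 337.35 and 523.54 in Flag-IP, against 316.90 and 261.34 in input. RNY1 supplied 72.9% and 75.6% of it in Flag-IP and 74.5% and 67.7% in input. The ratio of RNY1 to RNY5 within a library separated the groups, at 25.7 and 25.5 in Flag-IP against 40.1 and 37.1 in input. The ratio of RNY1 to RNY3 did not, at 3.29 and 4.99 in Flag-IP against 5.69 and 2.70 in input. Nor did RNY1 to RNY4, at 34.4 and 11.9 in Flag-IP against 7.03 and 12.4 in input. RNY3 to RNY5 overlapped too, at 7.80 and 5.12 in Flag-IP against 7.05 and 13.7 in input. None of these ratios was tested. Flag-IP 3 held 1.61 times the RNY1 of Flag-IP 1, 4.65 times the RNY4 and 1.62 times the RNY5, while the ratio between the same libraries was 1.06 for RNY3, 1.06 for RPPH1 and 0.961 for RMRP. The tested H/ACA small nucleolar RNAs, another class of short RNA, had a median ratio of 1.56 over 70 genes. For the tested C/D box small nucleolar RNAs it was 1.31 over 30 genes, whereas the tested genes that are not structural RNAs had a median of 0.820. What part this difference between the Flag-IP libraries has in the results of RNY1, RNY4 and RNY5 was not tested.

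VTRNA1-1 was at 10.95 and 13.83 TPM in the Flag-IP libraries, against 8.41 and 4.26 TPM in input. The groups did not overlap, but input 1 lay nearer to Flag-IP 1 than to input 3. VTRNA1-1 rose by 0.92 ± 0.21 as deposited (limma adjusted p = 3.9e-05). The call was lost on leaving out input 3 (0.50, adjusted p = 0.13) and with no filter (adjusted p = 0.074). Set against the typical gene, VTRNA1-1 was at -0.21 ± 0.36 (limma adjusted p = 0.67). VTRNA1-2, VTRNA1-3 and the related VTRNA2-1 were listed at 0 in all 4 libraries and could not be tested. The rows of the abundant spliceosomal U6 RNA, RNU6-1 among 5, were listed at 0 as well. A value of 0 here need not mean that an RNA is absent, and why these rows were at 0 was not tested.

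TERC was the member with the closest agreement between inputs. It was at 7.36 and 8.27 TPM in the Flag-IP libraries, against 5.98 and 6.14 TPM in input. Each Flag-IP library exceeded each input, by a ratio of means of 1.29, and the log2 difference of 0.32 ± 0.21 did not pass (limma adjusted p = 0.15). Since 92.8% of tested genes had a larger ratio, TERC was lower relative to the typical gene, at -0.78 ± 0.16 (limma adjusted p = 0.011). Of the other structural RNAs, 51% had a larger ratio than TERC. Scaled to all genes other than structural RNAs it was lower as well (-0.65, limma adjusted p = 0.022). The RPPH1 level was 1591 and 1494 times that of TERC in Flag-IP, against 1047 and 1165 times in input, and these groups did not overlap.

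The order of the levels was nearly the same in both groups, read per transcript length. RPPH1 was followed by RMRP, RNY1, RNY3 and RNY4 in Flag-IP and in input. In Flag-IP the mean of RNY5 (12.5 ± 4.19 TPM) came next, then VTRNA1-1 (12.4 ± 2.04 TPM) and TERC (7.82 ± 0.643 TPM). In input VTRNA1-1 (6.34 ± 2.93 TPM) came before TERC (6.06 ± 0.113 TPM) and RNY5 (5.33 ± 0.785 TPM). These last 3 were not separated by more than their spread in input, nor were RNY4, RNY5 and VTRNA1-1 in Flag-IP. Among all genes of the table RPPH1 ranked 8 in Flag-IP and 7 in input by mean level, and RMRP ranked 9 in both.

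Of the 10 members, 8 passed the filter of a mean of 1 TPM, and limma called 6 higher and 1 lower as deposited, with TERC not called. The background is high: 86.6% of all genes tested were called higher and 0.740% lower. It includes genes that passed the filter through Flag-IP alone. The Flag-IP libraries were the 2 highest for 7 of the 8, against 93.1% of all genes, and the 2 lowest for 0, against 1.09%. The median log2 difference of the 8 was 0.73, against 0.84 over all genes tested and 0.31 over 201 structural RNAs. Adding 1 TPM before the logarithm lowers these medians most where levels are low. On the median-ratio scale RNY3 (-0.69 ± 0.19, limma adjusted p = 0.034) and TERC were lower, none was higher and 6 did not pass, where 18.6% of genes tested were called lower and 22.3% higher. The call of RNY3 was lost on leaving out Flag-IP 1 (-0.45, adjusted p = 0.16) or input 3 (-0.49, adjusted p = 0.13), with no filter (adjusted p = 0.096) and when the filter was set at 5 TPM (-0.48, adjusted p = 0.11). Without Flag-IP 3 the members called lower numbered 6. RPPH1, RMRP, RNY3 and TERC, 4 of the 8, had both Flag-IP libraries below both inputs on this scale, against 37.1% of all genes; none had both above, against 37.0%. The members' median was -0.53, against -0.01 over all genes tested and -0.74 over the structural RNAs.

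**Figure D3:**
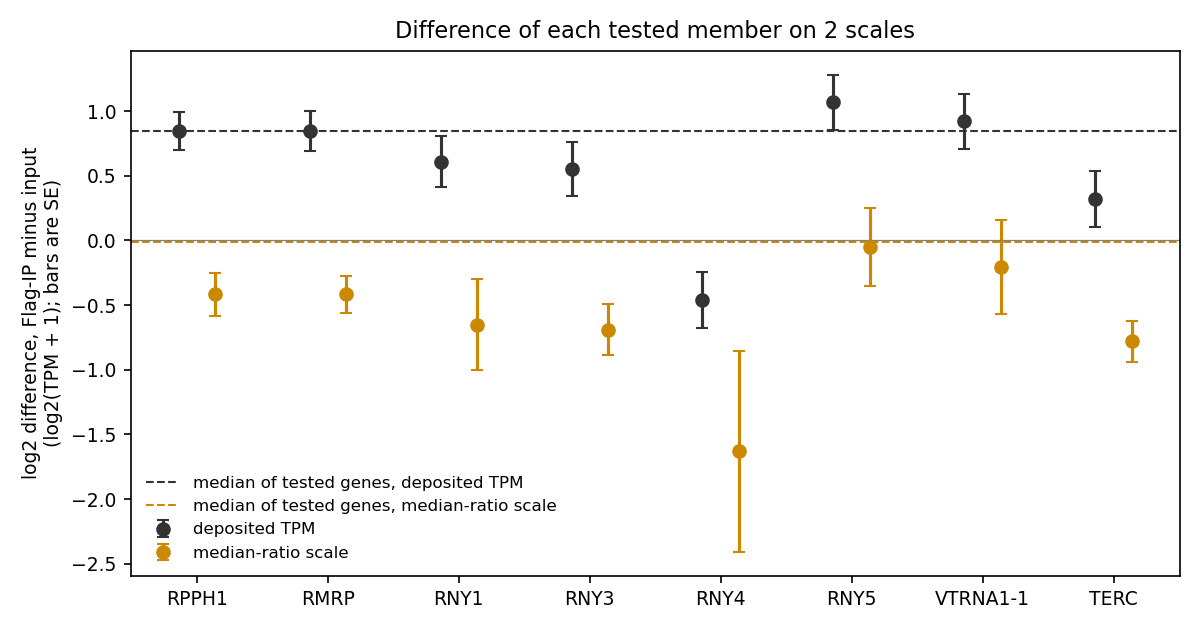
Log2 difference (Flag-IP minus input, log2(TPM + 1)) with its SE from limma for the 8 tested members, in black for TPM as deposited and in orange for the median-ratio scale, with dashed lines for the median of all 6487 tested genes on each scale. On the deposited scale RPPH1 and RMRP sit at the median of 0.84 and RNY4 below 0. The added 1 TPM understates differences of low genes and so lowers that median. On the median-ratio scale all 8 points lie below 0, from -1.63 for RNY4 to -0.05 for RNY5. Genes that passed the filter through Flag-IP alone helped set the 0 of this scale. With the filter at 5 TPM RNY5 was at 0.14 and the other members stayed below 0.

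The genes most like each member were sought among 1384 tested genes that averaged 5 TPM or more, by the distance over the 4 libraries between log2(TPM + 1) values with the row mean taken off. RPPH1 was nearest to C6orf48 (distance 0.019), at 19.68 and 20.62 TPM in Flag-IP and 10.14 and 11.72 TPM in input, and to ECHS1 (0.020). RMRP was nearest to ENO1 (0.029) and IFITM2 (0.034), both mRNAs. TERC was nearest to RPS15 (0.089) and BABAM1 (0.108), and RNY3 to CORO1A (0.083) and MYDGF (0.136). RNY1, RNY4 and VTRNA1-1 were nearest to small nucleolar RNAs: RNY1 to SNORA52 (0.289) and SNORD10 (0.300), RNY4 to SNORA3A (0.369) and SNORA57 (0.522), and VTRNA1-1 to SNORD8 (0.305) and SNORD17 (0.330). RNY5 was nearest to ANAPC11 (0.255) and HIST2H3D (0.301). With 4 libraries such nearness describes these libraries only.

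The mRNAs of the proteins in these particles did not share one direction relative to the typical gene. Of 11 RNase P and RNase MRP protein genes 4 could be tested, with a median of -0.23 on the median-ratio scale. On that scale 1 was lower and none higher, against 18.6% and 22.3% of all genes tested. That one was POP7, a subunit shared by both enzymes, at 3.39 and 3.69 TPM in Flag-IP and 3.62 and 4.45 TPM in input (-1.13 ± 0.13, limma adjusted p = 0.0021). As deposited 2 were higher and none lower, against 86.6% and 0.740% of all genes tested. The 2 were RPP25L (0.68 ± 0.21, limma adjusted p = 0.0016) and POP4 (0.60 ± 0.19, limma adjusted p = 0.0017). POP4 averaged 0.75 TPM in input and passed the filter through Flag-IP. Among the Y RNA binding proteins, all 3 were higher as deposited, where 86.6% of all genes tested were, and none passed on the median-ratio scale. TROVE2, the symbol used in the table for Ro60, was at 5.47 and 3.85 TPM in the Flag-IP libraries against 1.57 and 1.43 TPM in input (0.25 ± 0.13 relative to the typical gene). SSB, the gene of La, was at 11.50 and 6.49 TPM in the Flag-IP libraries against 4.44 and 7.01 TPM in input (-0.55 ± 0.20), with overlapping groups. PUF60, a splicing factor reported in Ro particles, was at -0.13 ± 0.10.

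TEP1 and MVP, mRNAs of vault proteins, were higher in Flag-IP on both scales. They averaged 0.245 and 0.20 TPM in input, so both passed the filter of 1 TPM through Flag-IP. A gene as low in both groups could not be tested. Of the 5 genes of vault proteins and vault RNA processing, 4 were tested; 2 were higher on the median-ratio scale and 4 as deposited, against 22.3% and 86.6% of all genes tested. TEP1, a protein of both vaults and telomerase, was at 3.25 and 2.98 TPM in the Flag-IP libraries, against 0.25 and 0.24 TPM in input (1.12 ± 0.10 on the median-ratio scale, limma adjusted p = 0.0012). MVP, the main protein of the vault shell, was named after its values were seen; it was at 1.77 and 1.85 TPM in the Flag-IP libraries, against 0.22 and 0.18 TPM in input (0.73 ± 0.11, limma adjusted p = 0.0051). PARP4, the poly(ADP-ribose) polymerase of the vault, was at 0.34 ± 0.12 and NSUN2, which methylates cytosines of vault RNAs, at 0.14 ± 0.10, and neither passed. Of 8 telomerase protein genes 5 were tested. As deposited 4 were higher (86.6% of all genes tested). Of these WRAP53 and PARN, named after their values were seen, averaged 0.725 and 0.98 TPM in input. Both passed the filter through Flag-IP. On the median-ratio scale 1 was lower (18.6% of all genes tested). That one was NHP2, a protein of H/ACA particles, at 7.18 and 6.85 TPM in Flag-IP and 6.10 and 6.47 TPM in input (-0.96 ± 0.12, limma adjusted p = 0.0024). Its partners NOP10 and DKC1, a pseudouridine synthase, were at 0.32 ± 0.11 and 0.24 ± 0.10 and did not pass. These are mostly low levels, for which adding 1 TPM before the logarithm understates a difference.

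**Figure D4:**
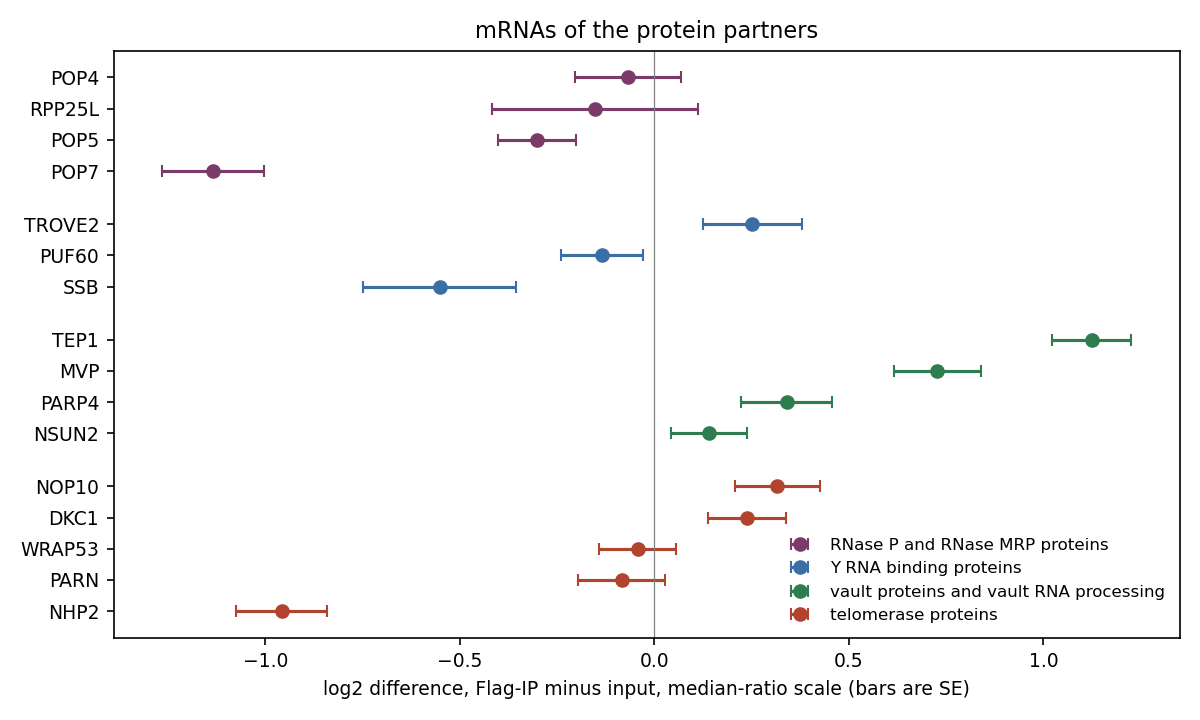
Log2 difference (Flag-IP minus input, median-ratio scale) with its SE from limma for the tested mRNAs of protein partners, 1 row per gene and 1 colour per list. TEP1 (1.12) and MVP (0.73), both below 1 TPM in input, are the calls above 0, POP7 (-1.13) and NHP2 (-0.96) those below.

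Among other RNA polymerase III transcripts, 5 of 11 rows were tested and 5 were higher as deposited, where 86.6% of all genes tested were called higher. On the median-ratio scale RN7SK was higher (1.60 ± 0.14, limma adjusted p = 0.0011) and RN7SL2 lower (-0.51 ± 0.15, limma adjusted p = 0.038), while RN7SL1 (-0.43 ± 0.16) and RNU6ATAC, the U6atac RNA of the minor spliceosome (0.14 ± 0.36), did not pass. BCYRN1, a neuronal cytoplasmic RNA named after its values were seen, was at -0.07 ± 0.22. RPPH1 and RMRP, at -0.42 each, lay close to RN7SL1.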

How the data were processed

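STAR, RSEM and the build GRCh38 are named, per the submitters' processing notes. Versions, annotation, read layout and fragment lengths were not given in the sources used here. Per gene symbol, the authors deposited TPM, rounded to 2 decimals, for 4 libraries that each sum to 1000000 within rounding. RSEM divides by an effective length, which is small for RNAs about as long as the fragments, so TPM of RNAs of 84 to 113 bases, as the Y and vault RNAs are, depend on it strongly; depth is unknown. Libraries were made with an mRNA kit, per the labels' protocols.

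Genes averaging 1 TPM or more entered the test, made on log2(TPM + 1) with limma 3.58.1 in R 4.3.3 (eBayes with a mean-variance trend, not robust), Flag-IP against input, two-sided, with Benjamini-Hochberg adjustment over all 6487 genes and a threshold of 0.05. As deposited the prior degrees of freedom were infinite: each gene takes its error from the trend, and p-values may be too small. After median-ratio scaling they were 4.02. Residual degrees of freedom were 2. The filter took the mean over all 4 libraries, so genes below 1 TPM in input could enter through Flag-IP. Structural RNAs were ribosomal, 7SL, 7SK, spliceosomal, nucleolar, Cajal body and microRNAs, MTRNR2L rows and the members. Alternatives were 2 other scalings, other filters and pseudocount, no trend, a replicate block and each library left out; the crossed block and repeats on the median-ratio scale were added after seeing the data. Members and lists were chosen with earlier results of these data known. Named were the members, ALKBH5, per list of related genes the 2 genes highest in mean and the 2 of largest deposited difference, and the 2 nearest genes per member, without pseudogenes and unnamed loci; genes of the 2 marker lists fall outside this rule and were named after their values were seen. RNA sequences, positions and gene overlaps are from GENCODE 29, gene lengths from RefSeq (GRCh38.p14); 9 of 10 members matched in GENCODE, and the sequence of RNY3 is not reported here. Copies were sought with BLAST 2.17.0, identities computed with Biopython 1.88.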

Additional observations from a re-analysis of the deposited data

How the results depend on the processing

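The scaling changed the direction of most members. Against the deposited differences, median-ratio scaling turned RPPH1 to -0.42, RMRP to -0.42, RNY1 to -0.65, RNY3 to -0.69, RNY5 to -0.050, VTRNA1-1 to -0.21 and TERC to -0.78, the same values with the replicate block added to it. Rescaling without structural RNAs turned RPPH1 to -0.17, RMRP to -0.17, RNY1 to -0.41, RNY3 to -0.46 and TERC to -0.65. Genes called higher, 5616 as deposited, numbered 1444, 2000 and 1272 with median-ratio scaling, without structural RNAs and at 5 TPM, and genes called lower, 48 as deposited, 1207, 644 and 25; with median-ratio scaling and the replicate block they were 1286 and 1055. Members called higher, 6 as deposited, were 0 with both rescalings and with the block on the median-ratio scale, and 3 without a filter. Members called lower, 1 as deposited, were 2 with median-ratio scaling, with and without the block, and 0 without a filter, without a trend and with the replicate block. On the median-ratio scale a filter at 5 TPM gave 392 higher and 355 lower genes, 1 member lower and RNY5 at 0.14; without a filter 1 member was lower. Leaving out each library, genes numbered 4198 to 5340 higher and 32 to 62 lower, and members 4 to 5 higher and 0 to 1 lower; on the median-ratio scale genes numbered 897 to 1226 higher and 567 to 916 lower, and members 0 higher and 1 to 6 lower. Over these, RNY4 ran from -1.50 to 0.57 as deposited, and on the median-ratio scale RNY5 from -0.46 to 0.43 and VTRNA1-1 from -0.78 to 0.32.

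The replicate numbers share no stated batch, and deviations of same-numbered libraries correlated at -0.17 (-0.19 on the median-ratio scale). The replicate block gave 4789 genes higher and 35 lower and 4 members higher and 0 lower, with RNY1 (adjusted p = 0.063), RNY3 (0.12) and RNY4 (0.19) no longer called. A crossed block, which pairs input 1 with Flag-IP 3, gave 5908 higher and 58 lower as deposited, 7 members higher and 1 lower, and on the median-ratio scale 1409 and 1275 genes and 6 members lower. Unknown depth and 2 libraries per group limit every value here. Why a setting moved a value was not tested beyond what the setting itself changes.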

Other observations

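Of 11 genes for factors that place RNA polymerase III on promoters, 6 averaged 1 TPM or more. All 6 averaged below 1 TPM in input, so each passed this filter through Flag-IP. A gene as low in both groups could not be tested. As deposited 5 were higher and none lower in limma, where 86.6% of all genes were. On the median-ratio scale 2 were higher and 1 lower, against 22.3% and 18.6% of all genes tested, with a median of 0.17. BDP1, a subunit of the initiation factor TFIIIB, was at 4.02 and 2.57 TPM in the Flag-IP libraries, against 0.72 and 0.85 TPM in input (0.48 ± 0.12, limma adjusted p = 0.022). BRF1, another TFIIIB subunit, was at 2.52 and 2.25 TPM in the Flag-IP libraries, against 0.66 and 0.84 TPM in input (0.24 ± 0.10, limma adjusted p = 0.11). The other call above 0 was SNAPC3 (0.35 ± 0.09, limma adjusted p = 0.029) and the call below 0 SNAPC2 (-0.38 ± 0.10, limma adjusted p = 0.025), both subunits of the complex that binds upstream of the genes of RPPH1, RMRP and the Y RNAs; these were named after their values were seen.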
